A study of Mus musculus with 6 samples.

Results

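Endothelial and endocardial identity genes were followed in E12.5 mouse embryonic hearts. The 10 genes, chosen by symbol, were Cdh5, Pecam1, Cldn5, Esam, Plvap, Emcn, Egfl7, Ramp2, Nfatc1 and Sox18. All 10 had a row among the 30619 rows of the deposited count table, and all 10 passed the filter on low counts that left 17557 genes to test. The tested hearts are named CKO in the sample titles, for a conditional knockout of Trim28, and carry the genotype label TRIM28 knockdown. The reference hearts are named CTR and carry the genotype label WT. Each group had 3 polyA RNA libraries of mixed cardiac cells. The sources used here do not give the Cre driver, the cells it acts in, the floxed alleles, the strain, the number of embryos per library, or any Cre or floxed allele in the controls. Nothing in the labels says that libraries came from separate animals, so p-values measure the spread between these libraries. Each pair of libraries within a group differed beyond sampling noise (chi-square per degree of freedom 9.32 to 17.3).

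The endocardium is the endothelial lining of the heart chambers, and at midgestation it signals to the muscle wall, supplies cells to the valve cushions and contributes to the first coronary vessels. Endothelial cells hold together through junctions built from adhesion proteins, carry surface glycoproteins that face the blood, and keep their identity through transcription factors of the ETS, SOX and NFAT families. TRIM28 is a co-repressor that zinc finger proteins bring to chromatin.

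Libraries held 34400841 to 39763233 counts in CKO and 36854002 to 39702929 in controls. Trim28 itself was at 172, 314 and 165 CPM (counts scaled to a common library size with TMM factors) in the libraries labelled CKO 1, 2 and 3, against 305, 391 and 443 CPM in controls 1, 2 and 3. Its log2 fold change of -0.81 (SE 0.34) did not pass in edgeR (adjusted p = 0.339). Trim28 in the library labelled CKO 2 was within the range of controls, and each direction below rests on the labels. A ribosomal RNA row took 0.563% to 0.790% of counts in CKO and 0.126% to 0.522% in controls, with no overlap. The heart label was borne out by cardiomyocyte markers, whose 10 genes summed to 30374 to 31282 CPM in CKO and 28539 to 30477 CPM in controls. Over all genes, 532 were called higher and 188 lower at an adjusted p under 0.05.

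Of the 10 endothelial identity genes, 3 were lower in CKO hearts and none was higher. The 3 were Cdh5, Plvap and Ramp2, which lay 17.8% to 21.3% below controls. Nfatc1, Sox18 and Esam had negative fold changes that did not pass the test, Pecam1, Egfl7 and Cldn5 had smaller ones, and Emcn had a small positive one. Of all tested genes, 1.07% were called lower and 3.03% higher, 4.1% in all. The groups did not overlap for 5 of the 10, all lower in CKO, against 22.1% of tested genes in either direction and 10.6% with CKO lower. The median log2 fold change was -0.20 over the 10 members and 0.00 over all tested genes. DESeq2 and limma-voom called the same 3 genes. No member was higher at an unadjusted p under 0.05 in edgeR or called higher by DESeq2 or limma-voom, while 6 were lower at an unadjusted p under 0.05, as were 7.69% of tested genes. In whole hearts, fewer endothelial cells and less RNA per endothelial cell cannot be told apart.

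**Figure D1:**
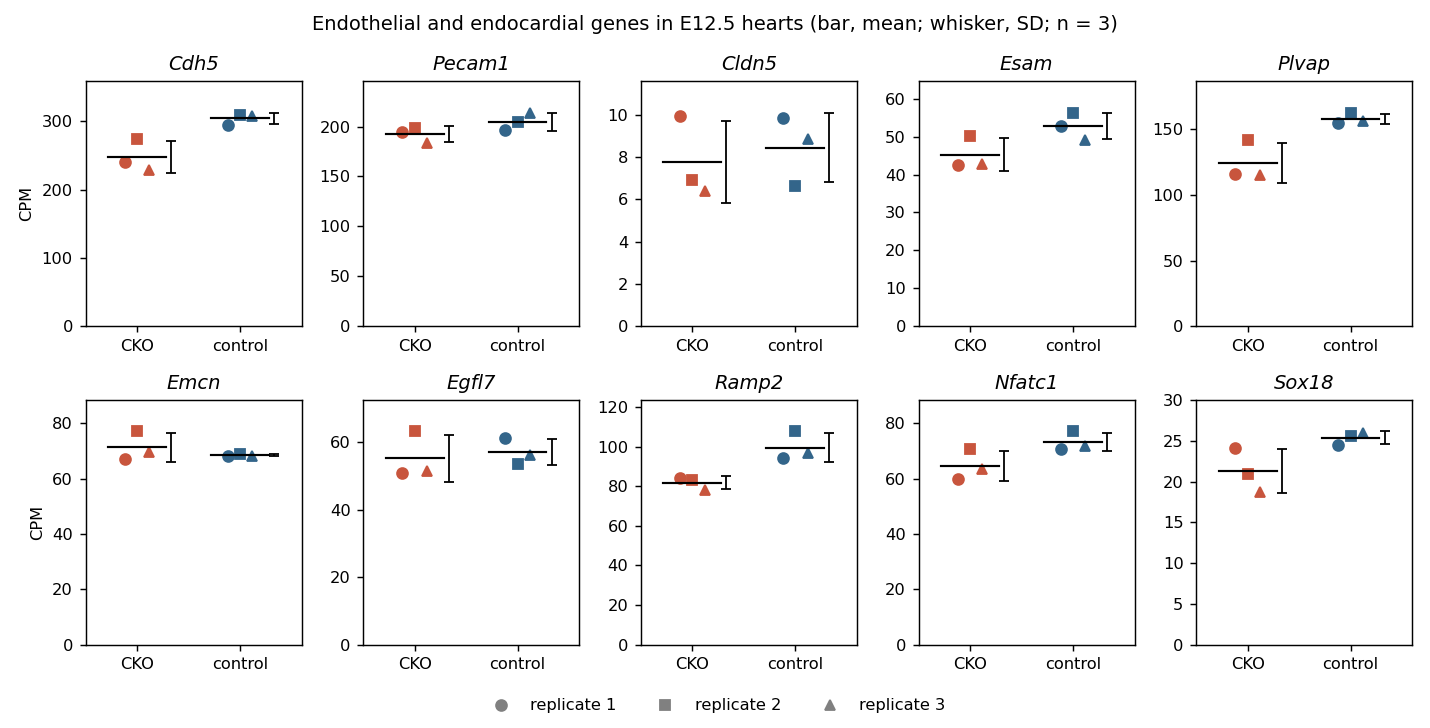
Level of each of the 10 genes in CPM (linear axis from 0) in the 3 CKO libraries (left) and the 3 control libraries (right). Points are libraries, horizontal bars are means and whiskers are SDs. All 3 CKO points lie below all 3 control points for Cdh5, Plvap, Ramp2, Nfatc1 and Sox18.

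Among the junction genes, Cdh5 encodes VE-cadherin, the adhesion protein of endothelial adherens junctions. Cdh5 (ENSMUSG00000031871.9, mm10 chromosome 8, 104101625 to 104144511, plus strand) had 240, 275 and 229 CPM in CKO 1, 2 and 3, against 295, 310 and 308 CPM in controls 1, 2 and 3. The groups did not overlap, as in 10.6% of tested genes in this direction, and the library labelled CKO 2 was the nearest of its group to the controls. The means were 248 ± 24.2 CPM in CKO and 304 ± 7.94 CPM in controls (SD, n = 3 each), a log2 fold change of -0.30 (SE 0.06, edgeR adjusted p = 0.00839). The call was lost without control replicate 2 (adjusted p = 0.0541), control replicate 3 (0.0564) or CKO replicate 3 (0.0903), at log2 fold changes between -0.38 and -0.24 in the 6 fits that left out 1 library.

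Pecam1 encodes an immunoglobulin-family adhesion protein of endothelial contacts that platelets and leukocytes also carry. It lies on chromosome 11 (106654217 to 106750628, minus strand) and had 195, 199 and 183 CPM in CKO, against 196, 204 and 214 CPM in controls. The groups overlapped, since CKO 2 lay above control 1. Its log2 fold change was -0.09 with a 95% interval from -0.20 to 0.02 (edgeR adjusted p = 0.418).

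Esam encodes an adhesion molecule of endothelial tight junctions, also present on platelets, and lies on chromosome 9 (37528078 to 37538319, plus strand). It had 42.7, 50.2 and 42.8 CPM in CKO and 52.9, 56.2 and 49.2 CPM in controls. CKO 2 lay inside the control range and the other CKO libraries lay below it. A log2 fold change of -0.22 (SE 0.08) did not pass (edgeR adjusted p = 0.116). Without the library labelled CKO 2 it was -0.31 and was called (adjusted p = 0.00915).

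Cldn5 encodes claudin-5, a tight junction protein that is abundant in brain endothelium, and had the fewest counts of the 10 genes, 238 to 361 in CKO and 256 to 392 in controls. It lies on chromosome 16 (18776847 to 18778262, plus strand). Its levels were 9.96, 6.91 and 6.39 CPM in CKO and 9.84, 6.65 and 8.87 CPM in controls, so the groups overlapped across most of their range. Its log2 fold change was -0.13 with a 95% interval from -0.51 to 0.26 (edgeR adjusted p = 0.793), so a change of the size seen for Cdh5 lies within the interval.

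Other genes of the junctions were tested beside them, on a list of 11 catenins, junctional adhesion molecules and other partners, most of which are not specific to endothelium. None was called by edgeR, DESeq2 or limma-voom and none had an unadjusted p under 0.05 in edgeR, with log2 fold changes from -0.15 to 0.11 and a median of 0.03. Ctnnd1, which encodes the p120 catenin that binds cadherin tails, was at 0.11 (edgeR adjusted p = 0.453). Of 12 other claudins, 7 passed the filter, and Cldn4, an epithelial claudin, was called higher. Cldn4 had 3.39, 1.51 and 2.80 CPM in CKO and 0.577, 0.338 and 0.401 CPM in controls, on 52 to 123 counts in CKO and 13 to 23 in controls (log2 fold change 2.55, SE 0.41, adjusted p = 0.00113). No other claudin was called, and the list median was -0.05.

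**Figure D2:**
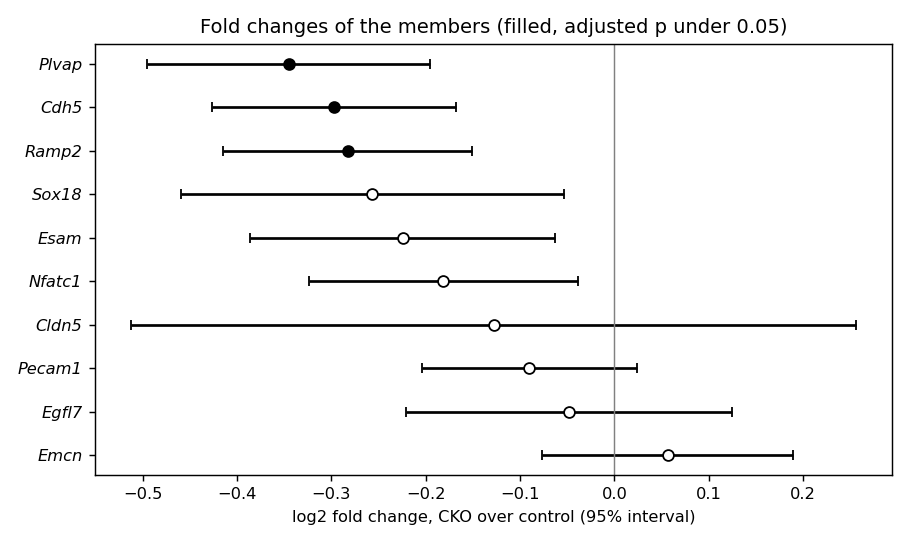
Log2 fold change of each gene, CKO over control (horizontal axis), with its 95% interval from the edgeR fit. Filled points are genes with an adjusted p under 0.05. The 3 filled points, Plvap, Cdh5 and Ramp2, lie between -0.35 and -0.28, and Emcn alone lies above 0, with an interval that spans it.

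Plvap encodes the protein of the diaphragms that span endothelial fenestrae and caveolae, and endocardium expresses it. Plvap (ENSMUSG00000034845.6, chromosome 8, 71497765 to 71511752, minus strand) had 116, 142 and 115 CPM in CKO and 155, 163 and 157 CPM in controls. The groups did not overlap, and CKO 2 was again the nearest to the controls. The means were 124.6 ± 15.3 CPM in CKO and 158 ± 3.89 CPM in controls (SD, n = 3 each), a log2 fold change of -0.35 (SE 0.07, edgeR adjusted p = 0.00977). The call was lost without control replicate 2 (adjusted p = 0.0613), control replicate 3 (0.0516) or CKO replicate 3 (0.0728). Gtpbp3 on the opposite strand overlaps the Plvap gene but shares none of its exons.

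Emcn encodes endomucin, a sialomucin of venous and capillary endothelium and of endocardium. Emcn (ENSMUSG00000054690.17, chromosome 3, 137341067 to 137432185, plus strand) had 67.1, 77.0 and 69.6 CPM in CKO and 68.3, 68.8 and 68.3 CPM in controls. The controls lay within 1 CPM of each other, and the CKO libraries lay on both sides of them. The log2 fold change was 0.06 with a 95% interval from -0.08 to 0.19 (edgeR adjusted p = 0.723), an interval that does not reach the estimates for Cdh5, Plvap or Ramp2. The ratio of Emcn to Cdh5 CPM within a library was 0.279, 0.280 and 0.305 in CKO and 0.231, 0.222 and 0.222 in controls (exact two-sided permutation p = 0.10, the smallest that 3 against 3 can give). This pair, that with Plvap and that of Pecam1 with Cdh5 were chosen after their values were seen. So were those of Adm with Ramp2 and of Ramp2 with Calcrl below. The ratio of Pecam1 to Cdh5 was 0.812, 0.724 and 0.802 in CKO and 0.665, 0.659 and 0.693 in controls (exact permutation p = 0.10). The ratio of Emcn to Plvap was 0.577, 0.541 and 0.604 in CKO and 0.440, 0.423 and 0.436 in controls, also with no overlap (exact permutation p = 0.10). With Emcn at similar levels in the groups and no overlap for Cdh5 or Plvap, both Emcn ratios had to separate the groups. Since the pairs were chosen after their values were seen, these ratios and their p-values are descriptions only.

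Egfl7 encodes a secreted factor that endothelial cells lay into their matrix, and the gene carries the endothelial microRNA miR-126a, which lies inside a retained-intron transcript of Egfl7 in GENCODE M21. Egfl7 (ENSMUSG00000026921.18, chromosome 2, 26580014 to 26593120, plus strand) had 51.0, 63.2 and 51.5 CPM in CKO and 61.4, 53.7 and 56.2 CPM in controls. CKO 2 was the highest of all 6 libraries and the other CKO libraries the lowest, so the groups overlapped. The log2 fold change was -0.05 with a 95% interval from -0.22 to 0.12 (edgeR adjusted p = 0.831). Egfl7 exons share 264 bases with Gm20532 and 64 bases with Agpat2, which are 7.37% and 1.79% of its exon bases. The microRNA was not analysed here, and its mature sequence is shown because its host gene is a member. It is printed 5′ to 3′ from RefSeq on GRCm38.p6 (chr2:26591402-26591423, plus strand), with the seed, bases 2 to 8, in capitals.
mmu-miR-126a-3p: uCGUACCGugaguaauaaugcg

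The relative Egfl8 was near the limit of detection, at 0.524, 0.407 and 0.177 CPM in CKO and 0.502, 0.260 and 0.0534 CPM in controls. Another relative, Egfl6, was not called either (log2 fold change -0.08), and neither relative had an unadjusted p under 0.05 or a call from DESeq2 or limma-voom.

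RefSeq promoter sequences are given here for 3 of the 10 genes, Emcn, Egfl7 and Cldn5, all of them uncalled. Many endothelial enhancers and promoters carry ETS sites with a GGAA core, so each window of 250 bases before an annotated start was searched for CNGGAAG on either strand (CTTCCNG on the reverse). These letters were present in 26.6% of the 32851 promoter windows in the table. In the sequences of GRCm38.p6 below, all on the plus strand, capitals mark matches.
Emcn, chr3:137340828-137341077: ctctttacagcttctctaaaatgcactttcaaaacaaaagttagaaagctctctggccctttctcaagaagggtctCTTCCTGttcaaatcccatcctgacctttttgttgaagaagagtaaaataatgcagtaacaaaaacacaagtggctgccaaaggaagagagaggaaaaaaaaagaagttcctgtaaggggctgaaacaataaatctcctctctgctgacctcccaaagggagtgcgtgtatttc
Egfl7, chr2:26583615-26583864: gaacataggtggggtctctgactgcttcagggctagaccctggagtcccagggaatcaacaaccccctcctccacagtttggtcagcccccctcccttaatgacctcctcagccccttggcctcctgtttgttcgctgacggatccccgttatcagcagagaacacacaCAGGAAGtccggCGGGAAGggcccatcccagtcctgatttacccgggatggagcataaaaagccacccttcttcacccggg
Cldn5, chr16:18776597-18776846: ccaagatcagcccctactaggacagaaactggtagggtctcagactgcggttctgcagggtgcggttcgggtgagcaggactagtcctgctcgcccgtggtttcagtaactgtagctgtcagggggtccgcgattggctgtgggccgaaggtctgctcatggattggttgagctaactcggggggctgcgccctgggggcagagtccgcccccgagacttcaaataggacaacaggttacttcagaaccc
Emcn had 1 match and this Egfl7 window 2, while the Cldn5 window had 0. Of the other annotated Egfl7 starts, the window ending at 26581082 had 2 matches and that ending at 26586635 had 0. A match is a description of the letters only, and nothing about binding was measured.

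Ramp2 encodes a single-pass partner that joins the receptor CALCRL to form the adrenomedullin receptor of endothelium. Ramp2 (ENSMUSG00000001240.13, chromosome 11, 101246028 to 101259546, plus strand) had 84.1, 83.4 and 78.1 CPM in CKO and 94.2, 108 and 96.8 CPM in controls. The groups did not overlap, and here CKO 2 lay among its own group. The means were 81.8 ± 3.29 CPM in CKO and 99.5 ± 7.14 CPM in controls (SD, n = 3 each), a log2 fold change of -0.28 (SE 0.06, edgeR adjusted p = 0.0136). The call was lost without control replicate 2 (adjusted p = 0.111) or CKO replicate 3 (0.110). In GENCODE M21 a long Ramp2 transcript, annotated as a target of nonsense-mediated decay, shares 1103 exon bases with Vps25, which are 67.2% of the exon bases of Vps25 and 33.4% of those of Ramp2. Vps25 itself had only 16 to 30 counts in CKO and 7 to 16 in controls, and the sources used here do not give how the authors counted reads from shared exons, so the value of Ramp2 is uncertain to that extent.

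The ligand moved the other way. Adm, which encodes adrenomedullin and is known as a hypoxia-induced gene, had 12.4, 18.9 and 16.9 CPM in CKO and 7.50, 6.54 and 8.68 CPM in controls. All CKO libraries lay above all controls, and the log2 fold change was 1.09 (SE 0.15, edgeR adjusted p = 0.000552), with a call in each of the 6 fits that left out 1 library. Adm also passed with the ribosomal RNA share as a covariate (edgeR adjusted p = 0.0383). The ratio of Adm to Ramp2 CPM was 0.148, 0.227 and 0.217 in CKO and 0.0796, 0.0608 and 0.0897 in controls. It had to separate the groups, since Adm was higher and Ramp2 lower in every CKO library, so it is a description only. Calcrl, the receptor, had 68.7, 78.8 and 66.1 CPM in CKO and 78.3, 77.9 and 83.5 CPM in controls (log2 fold change -0.17, adjusted p = 0.196). Its call as lower appeared when the library labelled CKO 2 was left out. For Ramp2 over Calcrl CPM within a library the groups overlapped, unlike the other chosen ratios. That ratio was 1.154 ± 0.0865 in CKO and 1.248 ± 0.118 in controls (SD, n = 3 each, exact permutation p = 0.5). Ramp1 (-0.04, adjusted p = 0.913) and Ramp3 (0.24, adjusted p = 0.767), which pair with the same receptor family, and the decoy receptor gene Ackr3 were not called.

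Nfatc1, a transcription factor of endocardial cells that is needed for valve formation, lies on chromosome 18 (80606205 to 80713071, minus strand). It had 59.9, 70.5 and 63.4 CPM in CKO and 70.9, 77.0 and 71.8 CPM in controls. The groups did not overlap, though CKO 2 and control 1 lay within 1 CPM of each other. The log2 fold change was -0.18 with a 95% interval from -0.32 to -0.04, and it did not pass over all genes (edgeR adjusted p = 0.152). Without the library labelled CKO 2 it was -0.25 and was called (adjusted p = 0.0177).

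Calcineurin dephosphorylates NFAT proteins and so lets them enter the nucleus, and Rcan1, a calcineurin inhibitor gene, is itself an NFAT target. Rcan1 was higher, at 217, 216 and 212 CPM in CKO and 177, 180 and 164 CPM in controls (log2 fold change 0.31, SE 0.05, edgeR adjusted p = 0.00195), and kept its call with any 1 library left out. With the ribosomal RNA share as a covariate it was not called (adjusted p = 0.395). It was the single call among 9 genes of this pathway in edgeR. Rcan2 (0.38, adjusted p = 0.0933) was called by DESeq2 and limma-voom. The other NFAT genes were not called, among them Nfatc2 (0.01), Nfatc3 (-0.13, adjusted p = 0.258) and Nfatc4 (-0.06), and the pathway's median was -0.01.

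Sox18 encodes a SOX factor that acts with Sox7 and Sox17 in vessel formation and lies on chromosome 2 (181669836 to 181671640, minus strand). It had 24.1, 21.0 and 18.7 CPM in CKO and 24.5, 25.6 and 26.0 CPM in controls. The groups did not overlap, with CKO 1 within 1 CPM of control 1. The log2 fold change was -0.26 with a 95% interval from -0.46 to -0.05 (edgeR adjusted p = 0.154). Without CKO replicate 1 it was -0.36 and was called (adjusted p = 0.0482). Sox7 had 35.4, 40.6 and 34.9 CPM in CKO and 38.9, 36.9 and 36.1 CPM in controls (-0.01, adjusted p = 0.961). Sox17 was at 4.75, 5.20 and 5.94 CPM in CKO and 5.32, 5.43 and 5.88 CPM in controls (-0.06, adjusted p = 0.905).

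Levels between genes were compared per kilobase of union exon length. In CKO the highest was Plvap at 58.5, 71.6 and 58.0 CPM per kilobase, against 78.1, 81.8 and 78.9 in controls, and the lowest was Cldn5 at 7.03, 4.88 and 4.51 in CKO and 6.95, 4.69 and 6.26 in controls. In controls the highest mean was 13.3 times the lowest. In CKO the order was Plvap, Cdh5, Pecam1, Ramp2, Esam, Egfl7, Emcn, Sox18, Nfatc1, Cldn5. The order in controls had Sox18 above Emcn and was otherwise the same. Within CKO the ranges of Plvap and Cdh5 overlapped, as did those of Esam and Egfl7 and those of Emcn and Sox18. Within controls the overlapping neighbours were Pecam1 with Ramp2 and Egfl7 with Sox18. The length of Ramp2 includes the exons shared with Vps25, so its level per kilobase is uncertain.

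The CKO libraries differed among themselves in a common direction. The library labelled CKO 2 was the highest of its group for 7 of the 10 genes and the lowest for none, and CKO 3 was the lowest for 6 and the highest for none. CKO 1 and CKO 3 each lay below all controls for 9 genes, and CKO 2 for 5. Summed over the 10 genes, the level was 890, 988 and 858 CPM in CKO 1, 2 and 3 and 1029, 1072 and 1056 CPM in controls 1, 2 and 3. Leaving out the library labelled CKO 2 gave 5 lower calls among the 10 genes. That fit called 540 genes lower (2.97% of those tested) and 1012 higher (5.57%), against 188 and 532 with all libraries. Leaving out any other single library gave 39 to 139 lower calls over all genes and 0 to 4 among the 10. Genes outside the lists whose log2 CPM followed the mean standardized profile of the 10 most closely over the 6 libraries were Lbr (Pearson r 0.990), Mepce (0.989), Rexo1 (0.987), Slc38a1 (0.986), Mtfmt (0.985), Armcx4 (0.985), Nup50 (0.985) and Fgf9 (0.984). These are a description over libraries that share depth and group, picked from all genes with a mean of at least 5 CPM.

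Of 26 receptors and surface genes of endothelium, 7 were lower and 1 was higher, with a median log2 fold change of -0.18. Tek, the angiopoietin receptor, had 158, 184 and 155 CPM in CKO and 211, 210 and 217 CPM in controls (-0.36, SE 0.06, edgeR adjusted p = 0.00195), and kept its call whichever library was left out but not with the ribosomal RNA share as a covariate (adjusted p = 0.254). Aplnr, the apelin receptor of venous and coronary endothelium, had the lowest log2 fold change of the list, -0.55 (SE 0.11, adjusted p = 0.00826), at 19.5, 15.9 and 14.5 CPM in CKO and 21.4, 25.4 and 26.2 CPM in controls. Nos3, the endothelial nitric oxide synthase gene (-0.36, adjusted p = 0.0107), and Arhgef15 (-0.32, adjusted p = 0.0209) were lower. So were Rasip1, a regulator of vessel lumen formation (-0.30, adjusted p = 0.0366), Kdr, the main VEGF receptor (-0.26, adjusted p = 0.0460), and Cd34 (-0.26, adjusted p = 0.0223). Aplnr, Nos3 and Cd34 were called in 3 of the left-out fits, Arhgef15 in 2, and Kdr and Rasip1 in 1. S1pr1, the sphingosine-1-phosphate receptor, was higher, at 161, 154 and 161 CPM in CKO and 135, 143 and 130 CPM in controls (0.22, SE 0.05, adjusted p = 0.0265), with a call in 2 of the 6 fits. Tie1 (-0.20, adjusted p = 0.0646) and Cd93 (-0.18, adjusted p = 0.0823) did not pass. Leaving out the library labelled CKO 2 gave 13 lower and 1 higher, where lower calls over all genes numbered 540 in place of 188. Among the 6 left-out edgeR fits, only this one called Tie1 and Cd93. With all libraries, DESeq2 called 9 genes of the list lower, Tie1 and Cd93 among them. There limma-voom called the same 7 as edgeR.

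Among 16 tested endothelial transcription factors, 3 were lower and none higher, with a median of -0.15. Mecom had 57.4, 67.8 and 58.1 CPM in CKO and 83.8, 77.7 and 88.4 CPM in controls (-0.45, SE 0.07, edgeR adjusted p = 0.00106). Foxc1, a forkhead factor of endocardium and mesenchyme, had 30.7, 33.8 and 30.7 CPM in CKO and 43.6, 41.3 and 42.3 CPM in controls (-0.42, adjusted p = 0.00223). Both kept their call whichever library was left out, unlike Gata2 (-0.34, adjusted p = 0.0433), which was called in 1 of those 6 fits. With the ribosomal RNA share as a covariate neither Mecom (adjusted p = 0.214) nor Foxc1 (adjusted p = 0.139) was called. No factor of the list was higher at an unadjusted p under 0.05, or called higher by DESeq2 or limma-voom. The ETS factors Erg (-0.16, adjusted p = 0.291), Fli1 (-0.21, adjusted p = 0.316) and Ets1 (-0.17, adjusted p = 0.0968), and Tal1 (-0.32, adjusted p = 0.0614), did not pass in edgeR. DESeq2 called Tal1 lower beside Mecom, Foxc1 and Gata2, and limma-voom called only those 3. In the fit without that CKO library, which called 540 genes lower over all, 6 factors were lower.

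Of 10 genes enriched in endocardium, edgeR called none, although the list median was -0.20 and 7 had negative fold changes at an unadjusted p under 0.05. DESeq2 called Adgrg6 and Wnt4 lower, and limma-voom called none. Without the library labelled CKO 2, edgeR called 6 lower, among 540 lower calls over all genes. Among the 6 left-out fits, only this one called Npr3, Notch1, Dll4 and Adgrg6, and 2 called Wnt4. Npr3, a natriuretic peptide receptor of endocardium, had 205, 240 and 197 CPM in CKO and 225, 253 and 248 CPM in controls (-0.18, edgeR adjusted p = 0.191). Notch1 was at -0.22 (adjusted p = 0.109), its ligand gene Dll4 at -0.30 (adjusted p = 0.0785) and Wnt4 at -0.55 (adjusted p = 0.0530). Of 13 coronary, arterial and venous genes, Unc5b, a netrin receptor, was the single call and was higher, at 436, 353 and 421 CPM in CKO and 251, 275 and 282 CPM in controls (0.58, SE 0.07, adjusted p = 0.000498). Unc5b was called in each of the 6 fits that left out 1 library. It also passed with the ribosomal RNA share as a covariate (edgeR adjusted p = 0.0141). The list median was -0.10, and no gene of it was called lower by edgeR, DESeq2 or limma-voom, with 3 lower at an unadjusted p under 0.05. None of 5 lymphatic markers was called by any of these tools or had an unadjusted p under 0.05, among them Lyve1 (0.13, adjusted p = 0.801) and Pdpn (0.07, adjusted p = 0.753).

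**Figure D3:**
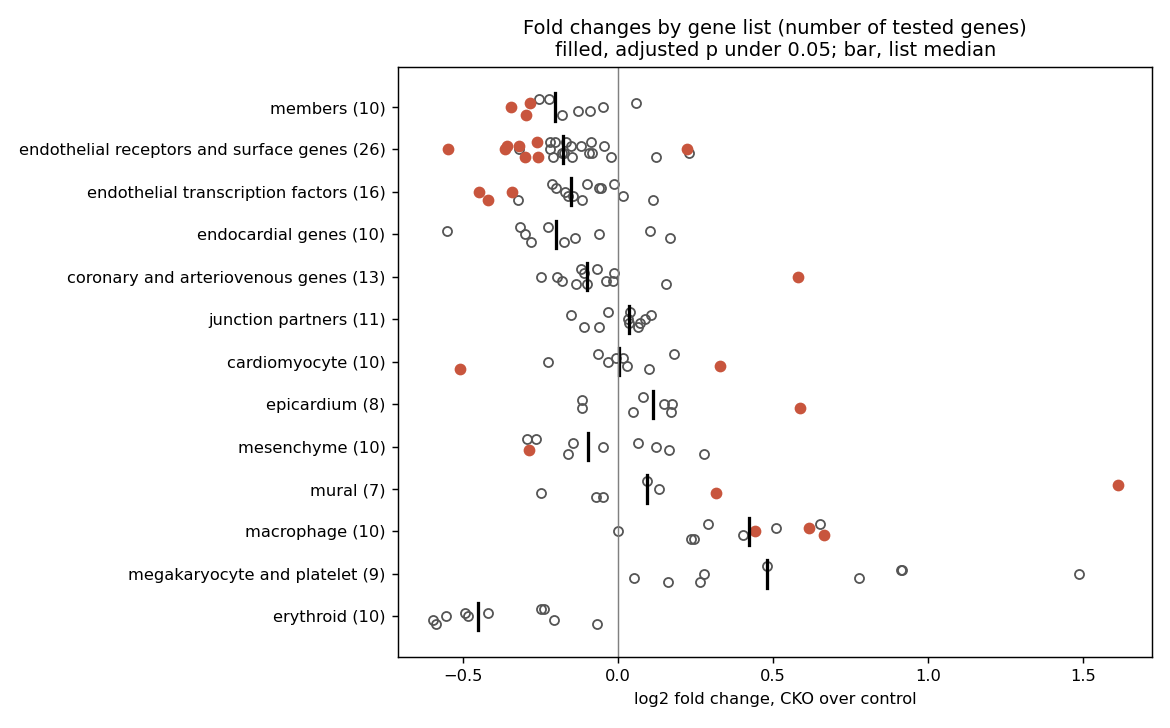
Log2 fold change, CKO over control (horizontal axis), of each tested gene in 13 lists (rows, the 10 members on top under the name members, tested genes in parentheses). Filled points have an adjusted p under 0.05 in edgeR, and vertical bars are list medians, which lie at -0.20 for the members and at 0.42 for macrophage markers.

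The summed level of the 26 endothelial receptor and surface genes was 2053 to 2294 CPM in CKO and 2360 to 2440 CPM in controls. Each member was also set against that sum within its library, a share that depends on the level of the 26 genes too. Emcn, whose own CPM was not called, took 3.23%, 3.36% and 3.39% of it in CKO and 2.89%, 2.82% and 2.86% in controls, so all CKO libraries lay above all controls. Plvap took 5.59%, 6.20% and 5.62% in CKO and 6.58%, 6.66% and 6.56% in controls, and Cdh5 took 11.6%, 11.98% and 11.1% in CKO and 12.52%, 12.7% and 12.9% in controls, both with no overlap in the other direction. Each of these had an exact two-sided permutation p of 0.10, the smallest that 3 against 3 can give, so none could pass 0.05, and differences between members were not tested. For the other 7 genes the groups overlapped, with exact permutation p from 0.20 to 0.90. Ramp2, called on the CPM scale, took 4.05%, 3.63% and 3.80% in CKO and 3.99%, 4.41% and 4.05% in controls. Nfatc1 took 3.01 ± 0.114% in CKO and 3.05 ± 0.0883% in controls (SD, n = 3 each).

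**Figure D4:**
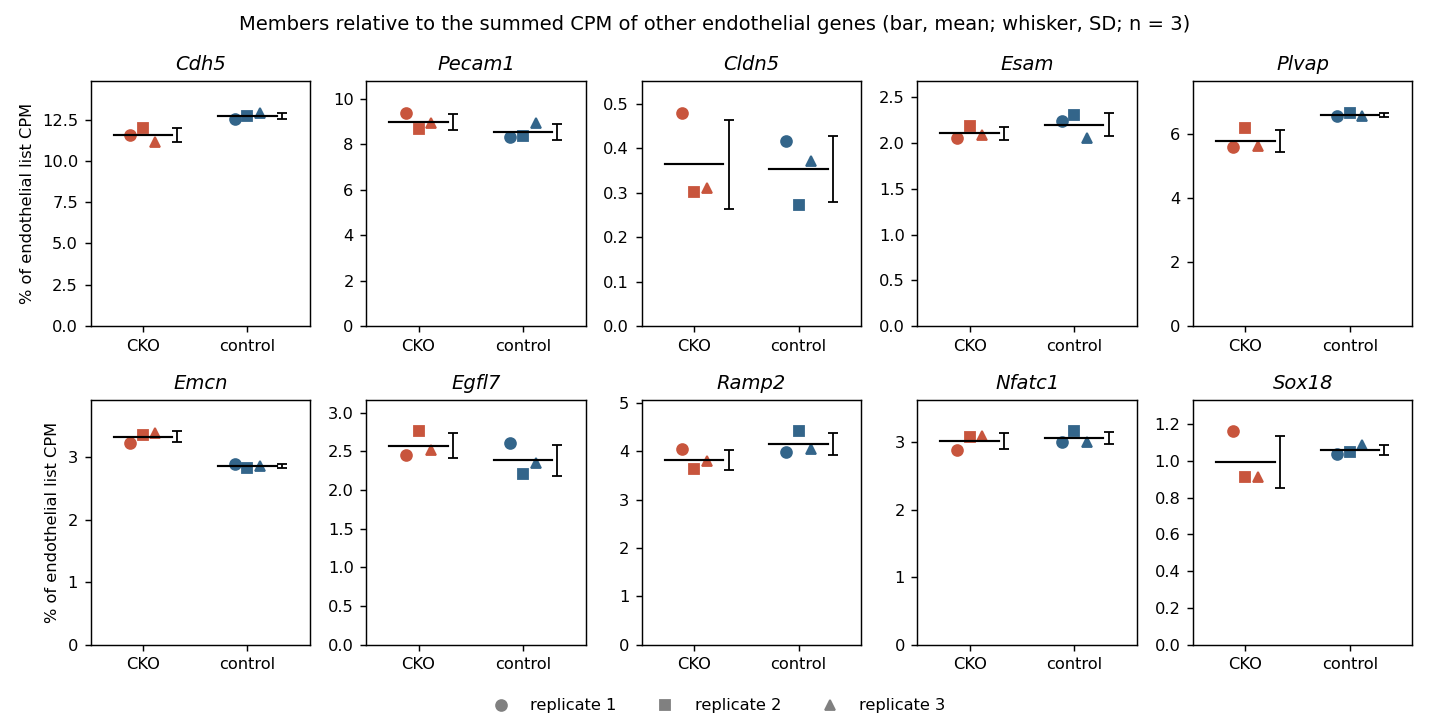
Each gene as a percent of the summed CPM of 26 other endothelial genes in the same library (linear axis from 0), CKO on the left and control on the right. Points are libraries, horizontal bars are means and whiskers are SDs. Emcn is higher in all 3 CKO libraries, and Plvap and Cdh5 are lower in all 3.

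Some markers of other cell types were called as well. The 10 macrophage markers had log2 fold changes from 0.00011 to 0.67, with a median of 0.42. Of these, 3 were called higher, the complement genes C1qa, C1qb and C1qc (C1qb not by limma-voom). C1qa was called in 2 of the 6 left-out fits, C1qb in 1 and C1qc in 4. With the ribosomal RNA covariate none was called (edgeR adjusted p = 0.218, 0.538 and 0.633). The 10 markers summed to 119 to 132 CPM in CKO and 96.7 to 105 CPM in controls. Of 10 megakaryocyte and platelet markers, 9 passed the filter and none was called by edgeR or limma-voom, while DESeq2 called Ppbp higher. These 9 had a median of 0.48, with 4 higher at an unadjusted p under 0.05, as were 1775 of all 17557 tested genes. With the tenth, Gp1bb, which was near 0, they summed to 66.5 to 90.1 CPM in CKO and 57.6 to 69.9 CPM in controls. Platelets also express Pecam1 and Esam, and leukocytes express Pecam1. The part of these cells in the values of those genes was not tested. The 10 erythroid genes had a median of -0.45 with no call by edgeR, DESeq2 or limma-voom and no unadjusted p under 0.05, and summed to 1159 to 1298 CPM in CKO and 1285 to 2215 CPM in controls. Of 10 cardiomyocyte markers, Myh6 was higher (log2 fold change 0.33) and Pln lower (-0.51), with a list median of 0.00. Krt19 was higher (0.59) among 8 epicardial markers, whose median was 0.11. Postn was lower (-0.29) among 10 mesenchymal markers, whose median was -0.10. Cspg4 (0.32) and Myh11 (1.61) were higher among 7 mural markers, whose median was 0.09. Krt19 and Myh11 were called in all 6 left-out fits, Cspg4 in 5, Pln and Postn in 3 and Myh6 in 2. With the ribosomal RNA covariate Pln, Krt19, Postn, Cspg4 and Myh11 were not called (edgeR adjusted p from 0.133 to 0.820). Myh6 passed there (edgeR adjusted p = 0.00612). The part of cell composition in the endothelial values was not tested.

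The ribosomal RNA share and the sex-linked transcripts also differed between libraries. With the log2 ribosomal RNA share as a covariate, no member was called. Cdh5 was then at -0.26 (edgeR adjusted p = 0.425), Plvap at -0.33 (adjusted p = 0.367) and Ramp2 at -0.26 (adjusted p = 0.469). Since that share did not overlap between the groups, share and group cannot be told apart. With Y-linked expression as a covariate no member was called either, at -0.29 for Cdh5 (adjusted p = 0.0783), -0.33 for Plvap (adjusted p = 0.0866) and -0.20 for Ramp2 (adjusted p = 0.189). The 4 Y-linked genes of that covariate summed to 3682, 7144 and 8275 counts in CKO and 3203, 1 and 4564 counts in controls. Xist, the transcript of the inactive X chromosome, had 15232, 7 and 4 counts in CKO and 24633, 36330 and 17569 counts in controls, with no overlap. CKO 1, control 1 and control 3 held both Xist and Y-linked counts.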

How the data were processed

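The authors deposited raw read counts per gene symbol for 6 libraries, named as raw counts per the labels, with whole numbers in every column. Reads were handled on the mm10 build, per the submitters' processing notes. The sources used here do not give the aligner, the counter, its annotation, its use of strand or its treatment of shared reads. Groups and replicate numbers came from the sample titles. Altered symbols (Nkx2.5 for Nkx2-5) were restored from GENCODE M21, which also gave positions and union exon lengths on the same build.

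Counts were analysed with edgeR 4.0.16 in R 4.3.3. filterByExpr (minimum count 10, total 15) kept 17557 genes and removed 0.0756% of counts. TMM scaling, robust dispersions and a robust quasi-likelihood fit (legacy off) with group as the only term were used, two-sided, with Benjamini-Hochberg adjustment over all tested genes and a threshold of 0.05. Every adjusted p comes from this edgeR test unless another is named. Fold changes are CKO over control. SE is the fold change over the square root of F, and intervals are at 95%. The pipeline was run on counts simulated from the estimated means and dispersions. The simulation did not model the ribosomal RNA or sex differences between libraries, so it says nothing about them. At 34400841 counts or more per library, the low-count members Cldn5 and Sox18 have the widest intervals.

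The members and 17 companion lists were chosen with earlier results of these data known. The text names all members and, per list, every called gene, up to 3 others with the smallest adjusted p, and fixed partners of members, except a gene that is not reported here. The cell type lists beyond endothelium give their called genes only. Alternatives were DESeq2 1.42.0, limma-voom (limma 3.58.1), other scaling, filters and fits, covariates, a replicate block and leaving out each library. The legacy edgeR fit was added after the data were seen. No replicate pair agreed within sampling noise, so none was merged.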

Additional observations from a re-analysis of the deposited data

How the results depend on the processing

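The 3 lower members were called under RLE, upper-quartile or no scaling factors, the non-robust and legacy fits, no filter, a filter of 1 CPM in 3 libraries, without erythroid and mitochondrially encoded genes, by DESeq2 and by limma-voom. At an adjusted p under 0.01, 2 were called. With either covariate the count was 0. Leaving out 1 library gave 0 to 5 lower and 0 higher members. The cause was not tested, apart from the fewer libraries.

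Over all genes, lower and higher calls numbered 388 and 863 with no filter, 34 and 247 at an adjusted p under 0.01, 3 and 53 with the ribosomal RNA covariate, 36 and 274 with the Y-linked covariate, and 39 to 540 and 255 to 1012 with 1 library left out. DESeq2 called 321 lower.

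Fold changes near 0 turned their sign when 1 library was left out. Cldn5 ranged from -0.36 to 0.00069 (positive without CKO replicate 3), Emcn from -0.0035 (without CKO replicate 2) to 0.090, and Egfl7 from -0.16 to 0.0032 (positive without control replicate 1). No other member changed direction under any alternative run.

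Deviations of same-numbered CKO and control libraries from their group means had correlations of 0.017, -0.0051 and 0.0025. With 3 libraries per group these cannot show whether the libraries were paired, and the labels do not say. With the replicate number as a block, 3 members were lower and 0 higher, with Cdh5 at -0.30, Plvap at -0.35 and Ramp2 at -0.28. Over all genes, 158 were then lower and 518 higher. The block gave 2 lower endocardial genes and 2 lower transcription factors. The share of Emcn in the endothelial sum had a log2 ratio of 0.22, and 0.25 against the sum of the endothelial transcription factors. Depth limits Cldn5, with 238 to 392 counts per library.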
